A study of Mus musculus with 4 samples.

Results

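A set of 10 genes of DNA repair and the replication stress response were followed in mouse lymph node RNA: Nbn, Rad54b, Fancg, Xpa, Rrm2b, Rad1, Rpa3, Aptx, Mms22l and Rad23b. They were chosen by symbol, and each symbol labelled 1 of the 56748 gene IDs in the count tables. The mice of one group had received BrQ (2-bromo-1,4-naphthalenedione, a brominated naphthoquinone), and the others had received vehicle. All 4 mice carried EAE, experimental autoimmune encephalomyelitis, in which immunised animals develop inflamed lesions of brain and spinal cord. BrQ replicates 1 and 3 were 2 mice and Vehicle replicates 1 and 3 were 2 mice, with 1 lymph node library each. The labels used here give no strain, sex, age, dose or time of sampling. The sample titles call the tissue dLN, which the labels do not spell out. The comparison asked whether transcripts of these genes differed in the nodes of treated mice.

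Cells repair DNA by several routes, each with its own proteins. Nucleotide excision repair cuts out bulky lesions, homologous recombination rejoins broken chromosomes with a sister copy, and the Fanconi anaemia pathway opens crosslinked strands. At stalled forks, single-stranded DNA is coated by a binding complex and a checkpoint clamp is loaded. Lymphocytes divide fast after antigen contact, and dividing cells draw on several of these pathways.

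Most gene names in these tables did not appear to hold the reads of their own genes, so the reads near each member are described first. All members lay in stretches of chromosomes 4, 6 and 15 where an earlier analysis of these counts had taken names and reads to meet. On GRCm38 (mm10), 7 of the 10 lay on chromosome 4, 2 on chromosome 15 and 1 on chromosome 6. Inside such stretches, 275 of 453 named protein-coding genes averaged at least 50 reads per library, 60.7%, with a median of 216.5 reads. Outside them 24.8% of 17920 did so, with a median of 1.25 reads. The stretches had been chosen on these same counts for holding reads, so this gap follows from their choice and is no check of placement. Within 1 Mb, the share of neighbours reaching 50 reads was 88.2% of 17 for Rad54b, 74.1% of 27 for Aptx, 72.0% of 25 for Xpa and 51.2% of 41 for Fancg. For Rrm2b and Nbn it was 75.0% of 8 and 66.7% of 6. For Rad1 it was 7 of 14 and for Rpa3 4 of 9. The shares of Fancg, Rad1 and Rpa3 were all under the 60.7% inside the stretches. Around Mms22l only 2 of 5 reached it, and around Rad23b 1 of 2, so their surroundings say little about the placement of their names. Fancg borders a run of chemokine and Fam205 names with few or no reads on one side, while Vcp, Pigo and Stoml2 directly beside it averaged 7296, 1676 and 1227 reads. These counts describe surroundings, and whether each name holds its own reads was not tested.

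**Figure D1:**
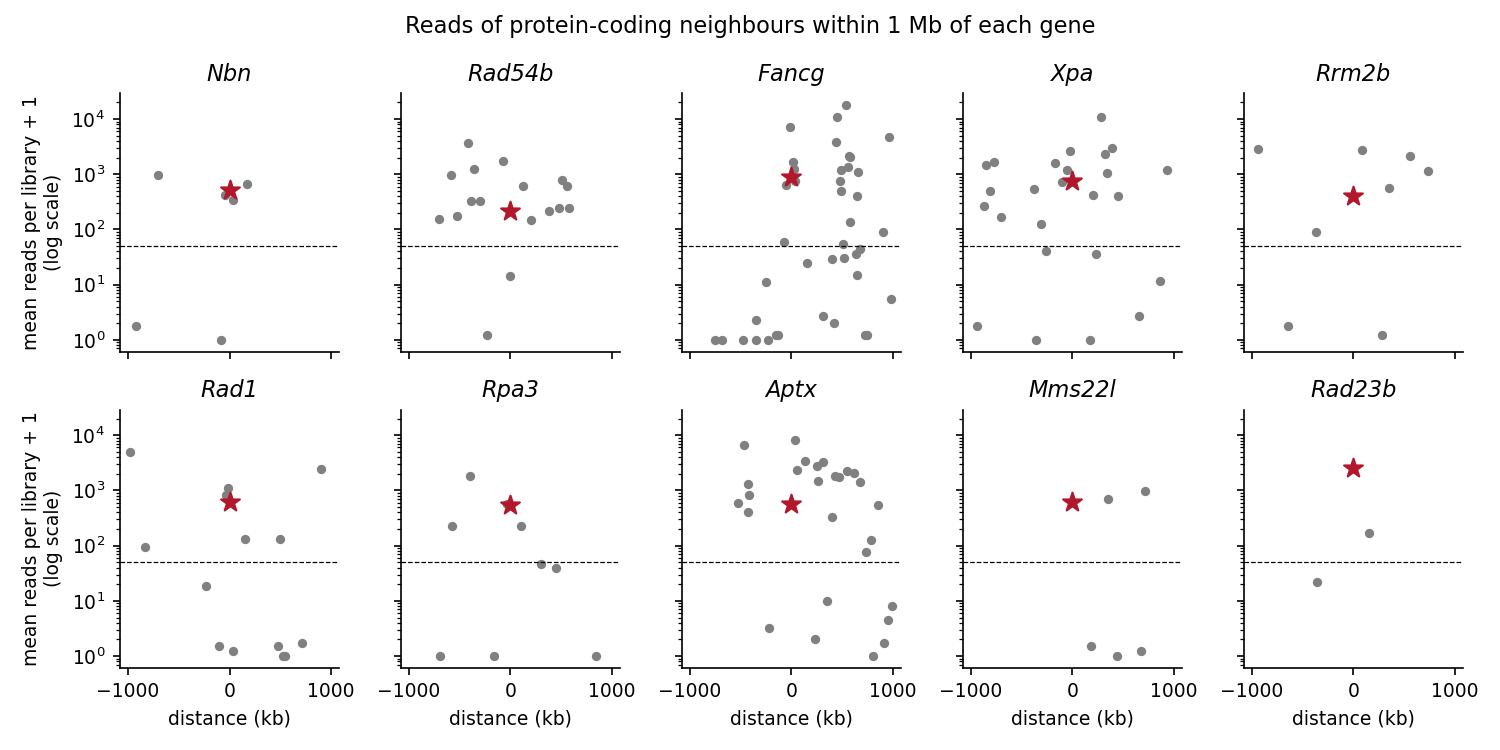
Mean reads per library plus 1 (log scale) of protein-coding neighbours (grey points) against their distance in kb from each of the 10 genes (red star); the dashed line marks 50 reads. Rad54b, Aptx and Xpa stand among filled names, while Mms22l and Rad23b have 5 and 2 neighbours.

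Libraries held 6813832 to 7989226 reads in gene intervals. The 10 genes together took 8232 and 7908 reads in BrQ replicates 1 and 3, against 7225 and 7367 in Vehicle replicates 1 and 3, and each had at least 144 reads in every library. All 10 passed the low count filter. CPM values (counts for every 1000000 gene reads) are scaled with TMM, a factor that sets the typical feature level with other libraries. Mitochondrial reads filled 15.8% and 12.1% of the BrQ libraries' gene reads, against 20.6% and 30.3% in the Vehicle libraries, a gap that scaling to library size alone passes on to every other gene. In bulk RNA, fewer cells of a type and less RNA per cell cannot be told apart.

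Xpa, Nbn, Fancg and Rpa3 were lower in BrQ nodes and Rad23b was higher, so the set did not move one way. By edgeR's quasi-likelihood test with Benjamini-Hochberg adjustment at 0.05, 1 of the 10 was called higher and 4 lower. Over all 10223 features 45.7% were called, 23.6% higher and 22.2% lower. Among the 402 tested inside the stretches, 44.3% were called, 17.9% higher and 26.4% lower. The 5 members called are therefore close to the background share. The median log2 fold change of the 10 was -0.30, against -0.19 inside the stretches and 0.051 over all features. In 2 members both BrQ libraries stood above both Vehicle libraries, and in 6 both stood below. Over all features these shares were 39.9% and 36.2%.

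**Figure D2:**
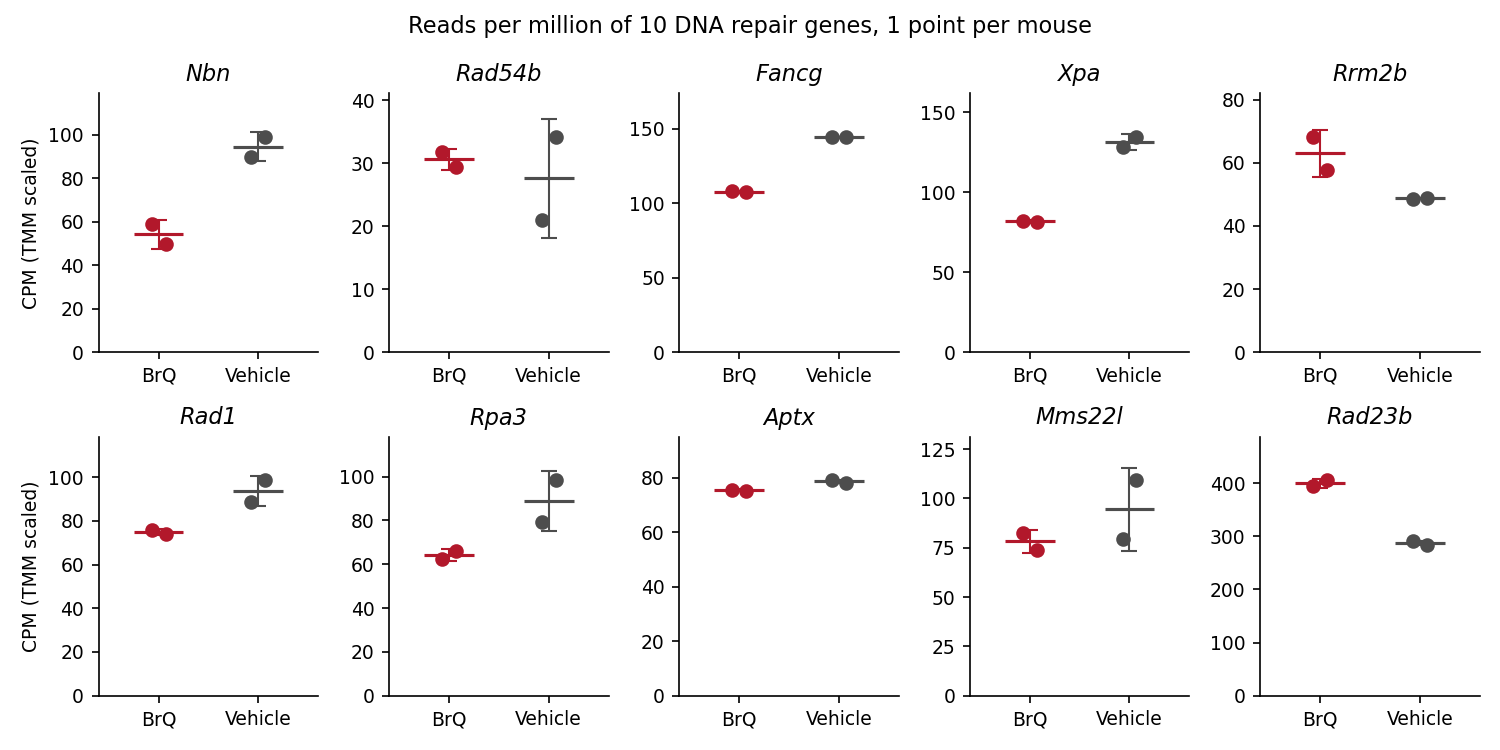
TMM-scaled CPM of each gene (vertical axis, from 0), BrQ left and Vehicle right, 1 point per mouse, with the mean (bar) and SD (whisker) of 2 mice. Xpa and Nbn show the widest gaps below Vehicle, Rad23b stands above it at 400.1 against 287.7 CPM, and Rad54b and Mms22l overlap.

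The pair that recognises bulky lesions moved in opposite directions. Xpa encodes the scaffold that verifies damage in nucleotide excision repair (ENSMUSG00000028329, chromosome 4, 46155347 to 46196311, minus strand). It stood at 82.2 and 81.2 CPM in BrQ replicates 1 and 3, against 128.0 and 134.7 CPM in Vehicle replicates 1 and 3. Both BrQ libraries were below both Vehicle libraries, and within each group the mice differed little. It was 0.622 times the Vehicle level, with a log2 fold change of -0.69 ± 0.15 (SE, adjusted p = 0.00489 with edgeR). Rad23b encodes a partner of XPC, the sensor that opens this pathway, and also shuttles ubiquitinated proteins to the proteasome (ENSMUSG00000028426, chromosome 4, 55350043 to 55392237, plus strand). It stood at 394.1 and 406.1 CPM in BrQ, against 290.9 and 284.5 CPM in Vehicle. The groups did not overlap here either, with BrQ on top. It was 1.39 times the Vehicle level, with a log2 fold change of 0.48 ± 0.13 (SE, adjusted p = 0.0141 with edgeR). Leaving out 1 BrQ mouse ended the Rad23b call with little change in size: 0.51 without BrQ replicate 1 (adjusted p = 0.0655, edgeR) and 0.46 without BrQ replicate 3 (adjusted p = 0.112, edgeR). The Xpa call also ended without BrQ replicate 3, at -0.66 (adjusted p = 0.0655, edgeR). About 4.07% of Xpa exon bases are shared with Ncbp1 on the other strand, where reads are uncertain because the strand setting is not given.

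The ratio of Rad23b to Xpa reads needs no scaling. On the log2 scale it was 2.26 and 2.32 in the BrQ libraries, against 1.18 and 1.08 in the Vehicle libraries. The BrQ mean of 2.29 ± 0.044 exceeded the Vehicle mean of 1.13 ± 0.075 (SD, n = 2 each) by 1.16. This ratio was picked after the values were seen and is given as a description.

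Of the genes of chromosome breaks and checkpoints, Nbn and Rpa3 were called lower with TMM over all features, while Rad1 and Rad54b did not pass. Nbn encodes nibrin, the subunit that brings the MRE11 nuclease complex to double-strand breaks and activates the ATM kinase (ENSMUSG00000028224, chromosome 4, 15957925 to 15992589, plus strand). It stood at 58.9 and 49.5 CPM in BrQ, against 89.9 and 99.1 CPM in Vehicle. The higher BrQ library stayed well below the lower Vehicle library. At 0.574 times the Vehicle level it had the largest change of the 10 with TMM over all features. Rad23b changed more with library size alone, with all read rows and with library size without mitochondrial reads. With library size alone Rrm2b and Rad54b also changed more than Nbn. The log2 fold change of Nbn with TMM over all features was -0.80 ± 0.17 (SE, adjusted p = 0.00432 with edgeR). Without BrQ replicate 3 it was -0.67 and no longer passed (adjusted p = 0.0747, edgeR).

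Rpa3 encodes the small subunit of replication protein A, which coats single-stranded DNA (ENSMUSG00000012483, chromosome 6, 8255936 to 8259173, minus strand). Its CPM values were 62.1 and 66.1 in BrQ, against 79.2 and 98.4 in Vehicle. The groups did not overlap, although the Vehicle mice lay far apart. The log2 fold change was -0.47 ± 0.17 (SE, adjusted p = 0.0461 with edgeR), just inside the threshold. The call ended without BrQ replicate 1 (-0.41), without BrQ replicate 3 (-0.50) and without Vehicle replicate 3 (-0.32), with adjusted p of 0.221, 0.173 and 0.191 in edgeR.

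Rad1 encodes a ring subunit of the checkpoint clamp that helps to activate the ATR kinase (ENSMUSG00000022248, chromosome 15, 10486018 to 10499063, plus strand). It stood at 76.0 and 74.1 CPM in BrQ, against 88.8 and 98.7 CPM in Vehicle. Both BrQ libraries were lower, but the difference did not pass (log2 fold change -0.32, 95% interval -0.67 to 0.027, edgeR adjusted p = 0.116). Rad54b encodes a motor protein of homologous recombination (ENSMUSG00000078773, chromosome 4, 11558922 to 11615805, plus strand). It had the fewest reads of the set, with 31.8 and 29.4 CPM in BrQ, against 20.9 and 34.2 CPM in Vehicle. Both BrQ libraries lay between the Vehicle libraries, and the interval of the log2 fold change ran from -0.40 to 0.71 (adjusted p = 0.635 with edgeR). Fsbp and Gm11832 share 35.9% of its exon bases, so its count is uncertain.

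Among the genes of crosslinks and stalled forks, Fancg was called lower with TMM over all features and Mms22l did not pass. Fancg encodes a member of the Fanconi anaemia core complex, which acts in the repair of crosslinked DNA (ENSMUSG00000028453, chromosome 4, 43002343 to 43010506, minus strand). It stood at 108 and 107 CPM in BrQ, against 145 and 145 CPM in Vehicle. The mice of each group were nearly equal and the groups were apart. The log2 fold change was -0.42 ± 0.14 (SE, adjusted p = 0.0341 with edgeR). It did not pass without BrQ replicate 1 (-0.42), without BrQ replicate 3 (-0.41) or without Vehicle replicate 3 (-0.44), with adjusted p of 0.162, 0.197 and 0.0619 in edgeR. Mms22l encodes a partner of TONSL that protects replication forks (ENSMUSG00000045751, chromosome 4, 24496451 to 24602950, plus strand). It stood at 82.4 and 73.9 CPM in BrQ, against 79.5 and 109 CPM in Vehicle. The groups overlapped, and the interval ran from -0.69 to 0.14 (log2 fold change -0.27, edgeR adjusted p = 0.253). The outcome turned on which Vehicle mouse was kept: without Vehicle replicate 1 the gene passed as lower (-0.51, adjusted p = 0.0404 with edgeR), and without Vehicle replicate 3 the log2 fold change was -0.038 (adjusted p = 0.890 with edgeR).

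The remaining pair supplies nucleotides and cleans DNA ends, and neither passed. Rrm2b encodes the small subunit of ribonucleotide reductase that p53 induces after damage and that resting cells use to make nucleotides (ENSMUSG00000022292, chromosome 15, 37923952 to 37961318, minus strand). It stood at 68.3 and 57.7 CPM in BrQ, against 48.7 and 48.8 CPM in Vehicle. Both BrQ libraries were higher, but they differed between themselves, and the log2 fold change of 0.37 had an interval from -0.016 to 0.76 (adjusted p = 0.105 with edgeR). Gm49085 on the other strand shares 8.04% of its exon bases. Aptx encodes aprataxin, which removes stalled AMP groups from DNA ends after a failed ligation (ENSMUSG00000028411, chromosome 4, 40682382 to 40703194, minus strand). It stood at 75.7 and 75.2 CPM in BrQ, against 79.2 and 78.3 CPM in Vehicle. The gap was narrow, with an interval from -0.40 to 0.28 on the log2 scale (adjusted p = 0.764 with edgeR).

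The scaling set how many members counted as lower. With library size alone the median of all features moved by 0.37 on the log2 scale, and 2 members were called higher (Rad23b and Rrm2b) and 0 lower, against 35.3% higher and 10.5% lower of all features. These are edgeR calls by adjusted p; at an unadjusted p under 0.05, 4 members counted in all, where 53.5% of all features did. DESeq2 with its own scaling called 1 member higher and 2 lower, against 8.38% and 8.52% of the 21036 features it fitted. Those include low counts that the filter left out of the 10223 features in edgeR, so the shares are not comparable. With library size from all read rows the median moved by 0.20, and 2 were called higher and 2 lower (Nbn and Xpa), against 29.9% and 15.5% of all features. A fit on features inside the stretches alone also gave 2 higher and 2 lower, against 24.5% and 18.6% of its 404 features. Rrm2b passed under each of these 3 scalings, at 0.74, 0.58 and 0.53 (adjusted p = 0.00622, 0.0223 and 0.0212 with edgeR). Fancg and Rpa3 passed under none of them. Nbn and Xpa kept a negative sign under all 17 alternatives and passed in 15 of them. Rad23b kept a positive sign under all 17 and passed in 15. Fancg and Rpa3 also stayed negative but passed in only 7 and 6 of the 17. With DESeq2, Fancg had an adjusted p of 0.0504 and Rpa3 one of 0.0749, and Rpa3 also missed the threshold with limma voom (adjusted p = 0.0523).

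**Figure D3:**
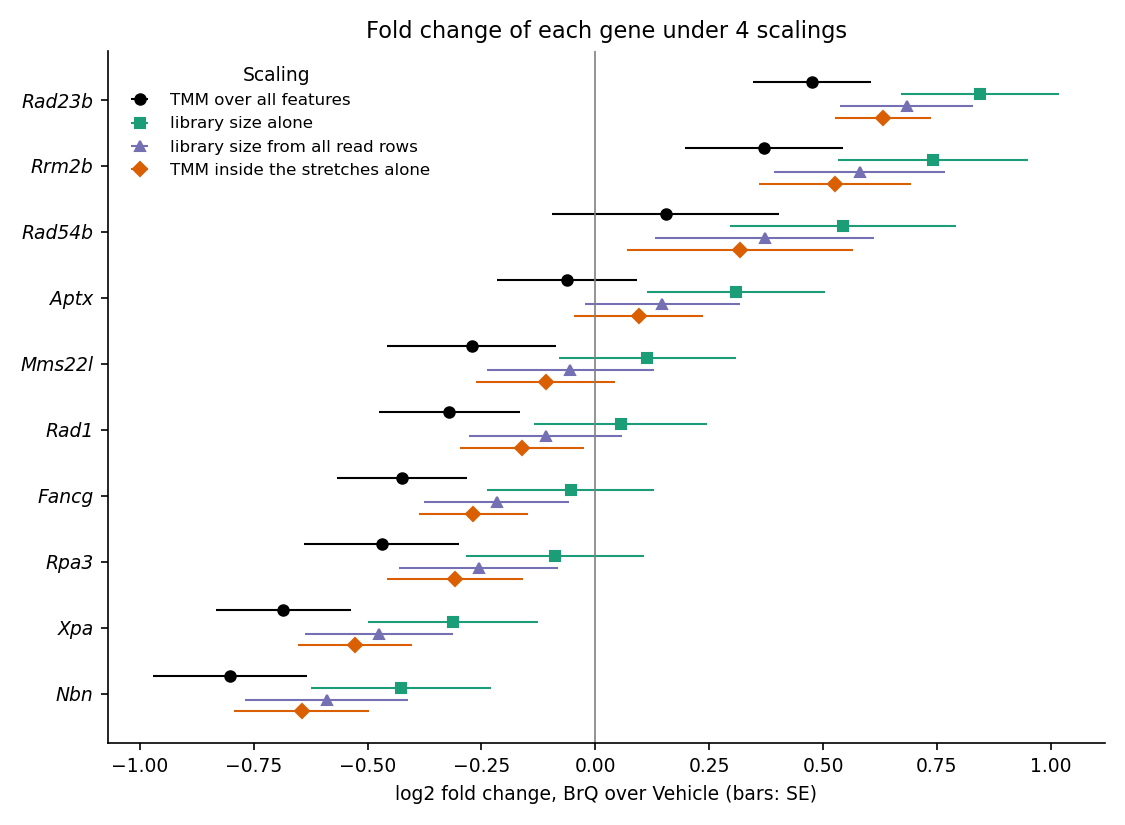
Log2 fold change, BrQ over Vehicle (horizontal axis, bars SE), of each gene under 4 scalings. The order of the genes stays nearly the same while the whole set slides: Rad23b is above 0 and Nbn and Xpa below 0 under each, Mms22l and Rad1 change side with library size alone, and Aptx does so under all but TMM over all features.

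Shares within the set are free of that choice. Rad23b made up 37.9% and 39.8% of the reads of the 10 genes in the BrQ libraries, against 27.7% and 25.2% in the Vehicle libraries. Nbn made up 5.66% and 4.86% in BrQ, against 8.57% and 8.77% in Vehicle, and Xpa 7.91% and 7.95%, against 12.2% and 11.9%. Rrm2b made up 6.57% and 5.65% in BrQ, against 4.64% and 4.32% in Vehicle. Set against the geometric mean of the 10 genes in the same library, Rad23b averaged 2.33 ± 0.081 in BrQ and 1.65 ± 0.15 in Vehicle (log2, SD, n = 2 each). Rrm2b averaged -0.34 ± 0.12 in BrQ and -0.91 ± 0.12 in Vehicle on the same scale. Nbn averaged -0.56 ± 0.13 in BrQ and 0.047 ± 0.028 in Vehicle. Rad23b and Rrm2b thus held a larger part of the set in both BrQ mice, and Nbn, Xpa, Fancg, Rad1 and Rpa3 a smaller one. This shows unequal change among the 10 and not which of them stayed level.

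**Figure D4:**
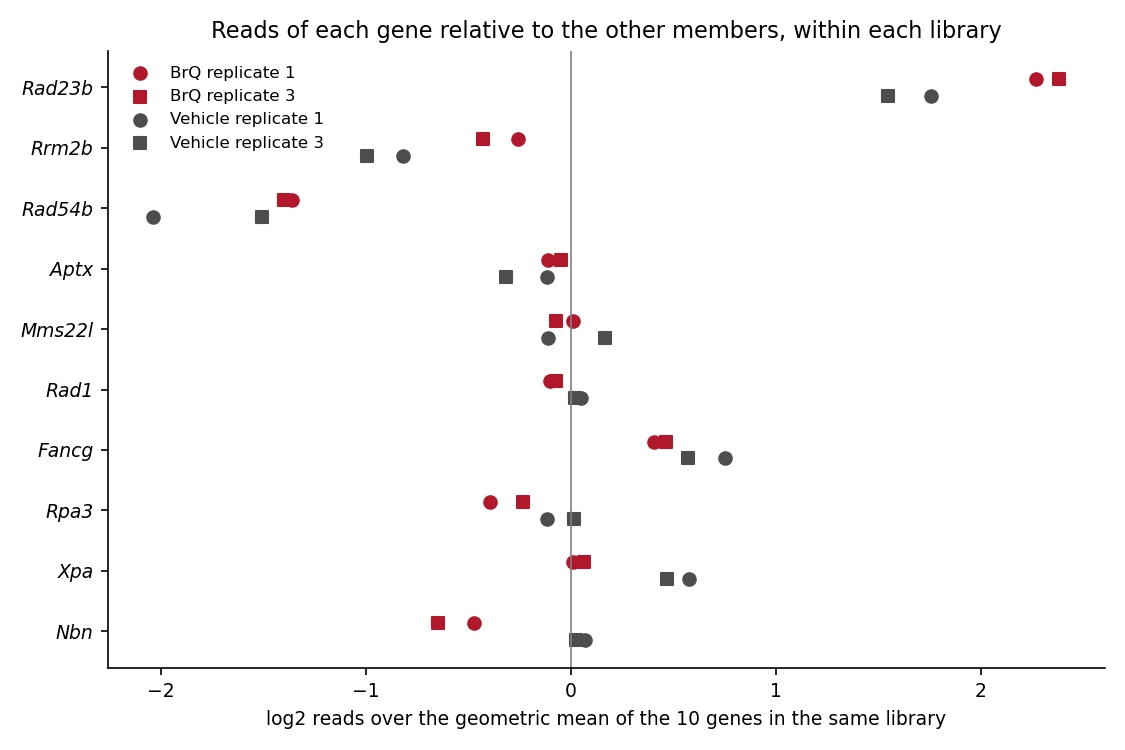
Log2 reads of each gene over the geometric mean of the 10 genes in the same library (horizontal axis), 1 marker per mouse, BrQ red above Vehicle grey. Both BrQ libraries lie to the right of both Vehicle libraries for Rad23b, Rrm2b, Rad54b and Aptx. They lie to the left for Nbn, Xpa, Fancg, Rpa3 and Rad1, and only Mms22l overlaps.

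The direction of the summed reads of the 10 genes depended on the scaling. They took 1177 and 1161 of every 1000000 gene reads in BrQ, against 988 and 922 in Vehicle. Without mitochondrial reads in the denominator the values were 1398 and 1321 in BrQ, against 1244 and 1322 in Vehicle, which overlap. With TMM scaling they were 1040 and 1020 in BrQ, against 1050 and 1131 in Vehicle. A two-sided exact permutation test gave p = 0.33 on the first scale, the smallest value that 2 mice against 2 allow.

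Per kilobase of exon, the order at the top differed between the groups. In BrQ Rad23b led at 69.8 ± 1.48 CPM per kb, followed by Rpa3 at 56.4 ± 2.44 and Xpa at 43.1 ± 0.40 (SD, n = 2 each). In Vehicle Rpa3 led at 78.1 ± 11.9 CPM per kb, followed by Xpa at 69.4 ± 2.51 and Rad23b at 50.2 ± 0.785. The first pair in Vehicle did not differ beyond the spread of Rpa3. Fancg and Nbn came next, at 28.4 and 21.4 CPM per kb in BrQ and at 38.1 and 37.3 in Vehicle, where these neighbours lay within the spread of Nbn. Aptx, Mms22l and Rad1 held 10.1 to 12.8 CPM per kb in BrQ and 12.7 to 14.8 in Vehicle. Rrm2b and Rad54b were lowest, at 6.90 and 5.30 CPM per kb in BrQ and 5.34 and 4.77 in Vehicle. The 35.9% of Rad54b exon bases shared with Fsbp and Gm11832 count in its length, and reads there may not count for it. The order of these lowest genes is therefore uncertain. Lengths are unions of GENCODE M21 exons, and long annotated ends that a node does not use would lower such a level.

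Other DNA damage genes gave little to read. Of a list of 154 matched symbols, 150 lay outside the stretches, where their median was 8.13 reads per library and 38 were at 0, and these names are not interpreted. Inside lay Ccne2, Rnf20, Topors and Trp53inp1, all with more than 100 reads on average. Of these 4, 1 was called higher (25%) and 0 lower, against 23.6% and 22.2% of all features. With so few genes, the count higher is close to the background share. The gene called higher was Trp53inp1, a stress gene that p53 induces, with 4833 and 5505 reads in BrQ, against 1925 and 2257 in Vehicle (log2 fold change 1.08 ± 0.15 SE, adjusted p = 0.000592 with edgeR). At an unadjusted p under 0.05 the count was also 1 of 4, where 54% of all features counted. DESeq2 called 1 higher and 0 lower, against 8.38% and 8.52% of the 21036 features it fitted, low counts included.

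Some cell markers moved in the same libraries with TMM over all features, where 45.7% of all features were called. The markers are not given under the other scalings. Inside the stretches lay 2 of 6 B cell markers, 2 of 6 T cell markers, 3 of 3 stroma markers and 3 of 5 markers of proliferating cells. Pax5 and Cd72 of B cells together stood at 2075 and 2126 CPM in BrQ, against 3254 and 3391 in Vehicle. Most of that gap lay in Cd72, called lower at a mean of 1034 CPM in BrQ, against 2076 in Vehicle. Pax5 averaged 1067 CPM in BrQ, against 1246 in Vehicle, without passing (log2 fold change -0.22, edgeR adjusted p = 0.155). Its unscaled reads, 8183 and 8522 in BrQ against 8514 and 8178 in Vehicle, overlapped, so its direction rests on the scaling. Il7r and Sit1 of T cells summed to 599 and 683 CPM in BrQ, against 958 and 1024 in Vehicle, and both were called lower. Ccne2, Melk and Smc2 of proliferating cells summed to 311 and 279 CPM in BrQ, against 202 and 246 in Vehicle, with Melk and Smc2 called higher. Ccne2 lay on the other side, at 39.1 CPM in BrQ, against 53.7 CPM in Vehicle, without passing (edgeR adjusted p = 0.111). The stroma markers summed to 17.1 and 12.5 CPM in BrQ, against 18.6 and 25.5 in Vehicle, with Col1a2 called lower and Ccl21a at 0 reads in all 4 libraries. Ccl19, too low to be tested, held 27 and 8 reads in BrQ, against 5 and 0 in Vehicle. The part of these shifts in the changes of the repair genes was not tested.

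The 250 bases upstream of the start site are shown for Rad23b, Xpa, Fancg and Rpa3. With TMM over all features Rad23b was called higher and the other genes shown lower. Fancg and Rpa3 passed in only 7 and 6 of the 17 alternatives. The sequences come from RefSeq on GRCm38.p6, whose table held windows for 7 of the 10 genes (not for Nbn, Rad54b and Rrm2b). Each is written 5′ to 3′ on the strand of its gene. Capitals mark motif matches on either strand. Rad23b is at chr4:55349792-55350041 (plus strand), Xpa at chr4:46196312-46196561, Fancg at chr4:43010302-43010551 and Rpa3 at chr6:8259142-8259391 (minus strand).
Rad23b: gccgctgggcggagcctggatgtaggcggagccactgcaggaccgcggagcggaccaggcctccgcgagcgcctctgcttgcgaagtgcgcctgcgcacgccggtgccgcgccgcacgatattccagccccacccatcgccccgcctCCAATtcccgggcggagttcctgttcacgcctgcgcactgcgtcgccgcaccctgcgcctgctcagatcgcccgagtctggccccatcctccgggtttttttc
Xpa: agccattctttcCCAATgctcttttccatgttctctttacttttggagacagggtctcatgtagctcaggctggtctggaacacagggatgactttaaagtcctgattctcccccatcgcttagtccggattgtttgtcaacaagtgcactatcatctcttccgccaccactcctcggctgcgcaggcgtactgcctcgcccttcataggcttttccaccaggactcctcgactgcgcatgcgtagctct
Fancg: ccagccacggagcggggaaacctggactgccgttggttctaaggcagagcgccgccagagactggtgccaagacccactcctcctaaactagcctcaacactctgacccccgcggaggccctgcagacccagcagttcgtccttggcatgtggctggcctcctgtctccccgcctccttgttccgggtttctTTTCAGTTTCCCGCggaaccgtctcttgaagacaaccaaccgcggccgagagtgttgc
Rpa3: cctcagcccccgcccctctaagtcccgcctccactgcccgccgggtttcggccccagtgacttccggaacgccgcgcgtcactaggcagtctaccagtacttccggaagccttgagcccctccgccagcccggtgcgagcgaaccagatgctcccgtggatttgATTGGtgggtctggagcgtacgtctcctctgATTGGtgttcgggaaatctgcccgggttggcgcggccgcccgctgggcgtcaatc

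The motifs searched in windows from 250 bases before to 50 after a start were CCAAT (NF-Y), TTTCCCGC and TTTGGCGC (E2F), TGACGTCA (CRE), TGACNNNGC (NRF2), the interferon response element (ISRE) and the core pair of the p53 element, on both strands. CCAAT lay in the Rad23b window at position -103 (-1 being the base before the start), in Xpa at -238 and in Rpa3 at -86 and -55 (as ATTGG), and 37.4% of all 32851 windows hold it. The Fancg window held TTTCCCGC at -52, which 1.07% of windows hold, and an interferon response element match at -58, which 3.44% hold. These last matches overlap. Aptx, which did not pass, held CCAAT at -69 and TGACGTCA at -17 (1.79% of windows for the latter). The NRF2, p53 and TTTGGCGC patterns had no match in the member windows, and 12.4%, 0.712% and 0.514% of all windows hold them. CCAAT, the only searched motif found in the Rad23b window, also lay in windows of Xpa, Rpa3 and Aptx, so 4 of the 9 member windows held it. The p53 core pair was searched with its core in only 1 fixed spelling, and other spellings were not searched. The lack of a match therefore covers that spelling alone. Rrm2b, the member described above as induced by p53, had no window to search. A match is a run of letters, not a shown binding site. Over their full windows of 300 bases, Rad23b had the highest GC content at 70.7% and Xpa the lowest at 53.3%, while the median of all windows was 52.7%.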

How the data were processed

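Per the labels' protocols, lymph node RNA of 4 EAE mice was taken up in TRI Reagent and read as paired ends. The submitters' processing notes name the mm10 build and Trim Galore 0.6.2, HISAT2 2.1.0 and also HTSeq 0.11.2. Annotation release and strand setting: not given in the sources used here. For each mouse the authors deposited 1 table of raw counts. The 5 closing rows, which name no gene, were left out of library sizes and tests; reads in no feature were 86.8% to 88.8% of all read rows.

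Tests used edgeR 4.0.16 (quasi-likelihood, filterByExpr, TMM) in R 4.3.3 on all features, with group as the only term. The SE is the log2 fold change over the root of F, and the 95% intervals use the degrees of freedom of that test. Alternatives were other scalings and filters, the legacy fit, omission of each library, a replicate block, DESeq2 1.42.0, and voom in limma 3.58.1. Scripts were tested on simulated data. Figures were drawn with matplotlib 3.10.9. Positions and exon lengths came from GENCODE M21 on GRCm38. Stretches are whole Mb inside segments from an earlier analysis of these counts: chromosome 4 from 4 to 62, chromosome 6 from 4 to 17 and 29 to 30, chromosome 15 from 9 to 38 and chromosome 18 from 4 to 10.

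The members, lists, tests and stretches were chosen with earlier results of these data known. All 10 members are named, and other genes only where a check or the damage list turns on them. Replicate numbers come from the sample titles. With 2 mice per group, p-values cover only the spread between these animals, and an SD rests on 2 values.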

Additional observations from a re-analysis of the deposited data

How the results depend on the processing

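Nbn, Xpa, Fancg, Rpa3, Rrm2b and Rad23b kept their sign under all 17 alternatives. Of the other members, Rad54b was -0.18 without Vehicle replicate 1 (up to 0.54 with another library left out), Rad1 was 0.055 and Mms22l 0.11 with library size alone. Aptx was 0.31 with library size alone, 0.15 with all read rows as library size, 0.095 with the fit inside the stretches alone and 0.10 with library size without mitochondrial reads. None of these 7 values passed. The summed members turned from 0.29 (log2 of BrQ over Vehicle per gene read) to -0.082 with TMM scaling.

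Members called higher numbered 2 with library size alone, with all read rows, with the fit inside the stretches and with library size without mitochondrial reads, and 0 to 1 with a library left out. Members called lower numbered 0 with library size alone, and 2 with all read rows, the fit inside the stretches, library size without mitochondrial reads, no low count filter, DESeq2 and the replicate block. They numbered 0 to 5 with a library left out; without BrQ replicate 3 edgeR called 0 of 10 in either direction, with 3 at an unadjusted p under 0.05, while 10.2% of all features were higher, 8.37% lower and 36.4% at that unadjusted p. All-feature shares were 29.3% higher and 17% lower with library size without mitochondrial reads. With no low count filter they were 6.21% and 5.58% of 21036 features, low counts included. The cause of these moves was not tested. Over all features, no low count filter gave 1307 higher and 1174 lower, library size alone 1072 lower, and 1116 to 2135 higher and 915 to 2241 lower with a library left out. Inside the stretches, library size alone gave 125 higher and 33 lower, all read rows 68 lower, and there were 41 higher and 50 lower with no low count filter, and 34 to 56 higher and 29 to 120 lower with a library left out. Of the 4 other damage genes, 2 were higher with library size alone (35.3% of all features) and with the fit inside the stretches (24.5% of its features). With the crossed block 1 was lower (25.1% of all features).

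The labels do not say that replicate numbers pair mice. The replicate block called 4190 of 10223 features and 3 members, ending the calls of Fancg and Rpa3. Deviations of same-numbered mice correlated at -0.13 across features, and a crossed block, added after seeing the data, called 5284 features and 5 members. Library size without mitochondrial reads and the TMM sum were also added then. The group of an omitted library is a single mouse, assumed to vary like the other group.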
